A study of Homo sapiens with 12 samples.

Results

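The replication-dependent cluster histones are the genes that supply the bulk of chromatin protein, and 55 of the 18377 genes measured belonged to them. A gene was a member when at least 1 probe set on the array named it alone and its symbol was H1-1 to H1-6, or H2AC, H2BC, H3C or H4C followed by a number, with pseudogenes left out. The members were 6 linker histone H1 genes, 14 H2A genes, 16 H2B genes, 8 H3 genes and 11 H4 genes. Every member was read by 1 probe set, so no averaging within a gene was needed. The rule takes genes by name and uses no measured value, but the family was taken up with earlier results of these data known.

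HT29 is a human colon adenocarcinoma line long kept in culture, and RNA from its cells was hybridised to Affymetrix human gene arrays, which read each transcript with a set of short probes. The 12 arrays formed 4 groups of 3. They were untreated control cells, taken as 0 h, and cells kept for 8, 24 or 48 h in 70 nM methotrexate. The sample titles call the 3 arrays of a group biological replicates, and all cells came from the single line HT29. The groups used here hold no untreated culture of 8, 24 or 48 h, so the drug and the time in culture cannot be told apart. The median replicate SD over all genes was 0.083 on the log2 scale.

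Each deposited value was a log2 ratio to the median of the 3 control arrays, with a control median of exactly 0 in all 28869 probe sets. The level of a gene and its signal over background are lost with this, so members are compared here by how far they moved and never by how abundant they were. For the same reason the colon epithelial identity of the cells could not be read from marker levels. Of 8 colon epithelial markers, KRT20, a keratin of differentiated colon cells, was the 1 called at 24 h (0.53, SE 0.049, adjusted p = 9.47e-06) and at 48 h (0.51, SE 0.049), and both times it rose. None of the 7 fibroblast and 4 leukocyte markers measured was called in any comparison with control. The array weights were lowest for replicate 3 at 48 h (0.199) and highest for replicate 2 at 48 h (6.52), against 0.457 to 2.18 over the others. With array weights, the 48 h group therefore rests mostly on replicate 2. Without replicate 3 at 48 h, 45 members were lower at 48 h than in control. Then 10 were higher and 4 lower at 48 h than at 24 h, where all arrays gave 45, 10 and 2.

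Replication-dependent histone genes are transcribed mainly in S phase, when new DNA has to be wrapped into nucleosomes. Pairs of H2A, H2B, H3 and H4 proteins form the nucleosome core, and H1 binds the DNA between cores. The mRNAs of these genes end in a stem-loop in place of a poly(A) tail. The stem-loop is bound by SLBP, transcription is driven by NPAT, which is activated by cyclin E and CDK2, and the mRNAs are broken down quickly once DNA synthesis stops. Methotrexate, an antifolate, inhibits dihydrofolate reductase and so limits the making of thymidylate and purines. Most members lie in a few dense clusters, above all on chromosome 6, and copies of 1 class are near-identical in coding sequence. The value of a single member is therefore uncertain, since probes of 1 set can also catch RNA of another copy. How the labelled RNA was primed was not stated in the labels used here.

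Most histone genes fell during treatment. After 8 h, 32 of the 55 members were lower than control and 0 higher. After 24 h, 49 were lower and 0 higher, and after 48 h, 45 were lower and 0 higher. A call here means an adjusted p (Benjamini-Hochberg, all 18377 genes) under 0.05 in limma's moderated test on the 12 arrays. Over all genes tested, 12.0% were called lower and 12.1% higher at 8 h, 8.02% lower and 8.69% higher at 24 h, and 12.3% lower and 13.0% higher at 48 h. The median member changed by -0.31, -0.96 and -0.92 at 8, 24 and 48 h, beside medians over all genes of 0.02, 0.02 and 0.01. These 3 comparisons share the same 3 control arrays.

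Large falls came at 24 h. Members called lower by at least 2-fold numbered 4 at 8 h, 23 at 24 h and 23 at 48 h, beside 0.582%, 0.403% and 0.479% of all genes. All 3 arrays of the treated group lay below all 3 control arrays for 39 members at 8 h, 51 at 24 h and 47 at 48 h, where the same held for 17.2%, 15.2% and 17.9% of all genes. Over the whole time course limma's moderated F test called 50 of the 55 members, against 38.8% of all genes. In bulk RNA such as this, fewer cells making histone mRNA and less of it per cell cannot be told apart.

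**Figure D1:**
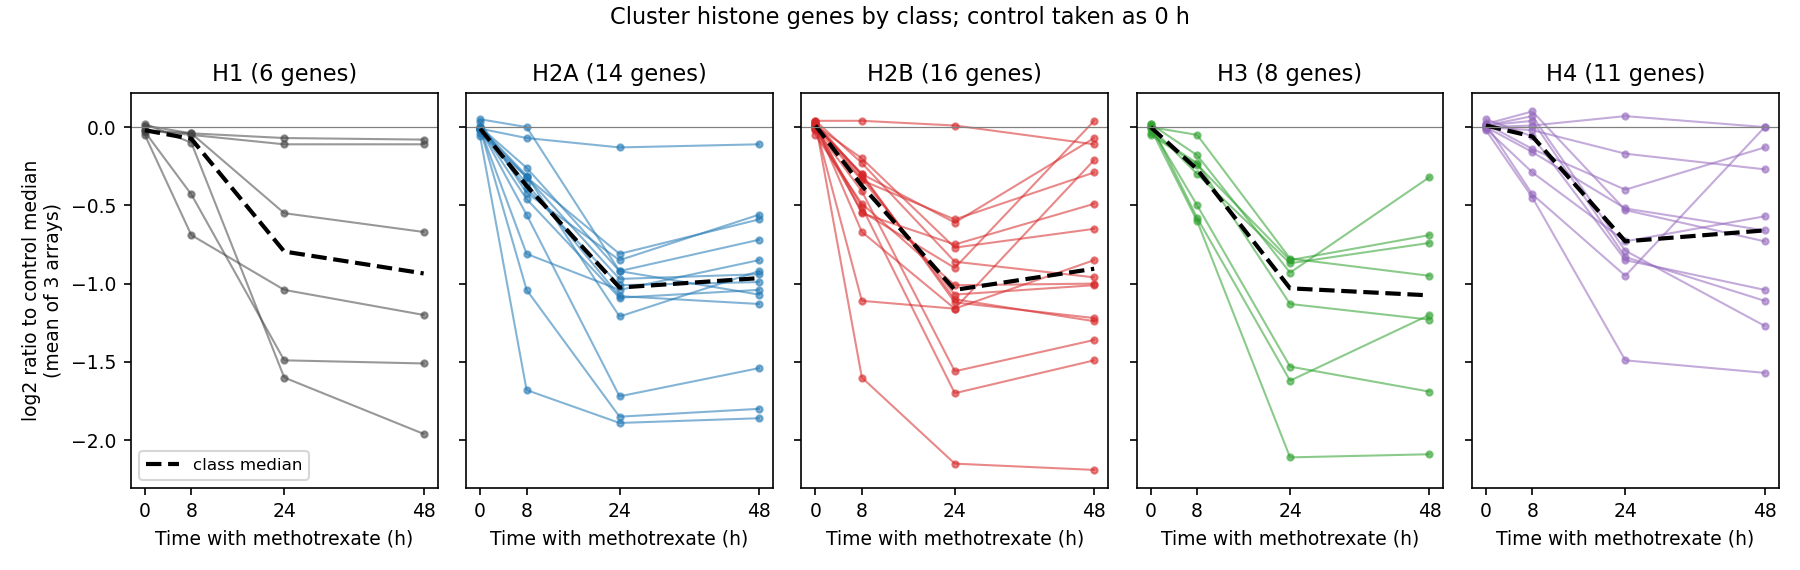
Change of each member over the time course, in 1 panel per class, with hours of methotrexate on the horizontal axis (control at 0 h) and the group mean of 3 arrays, as a log2 ratio to the control median, on the vertical axis. Thin lines are single members and the dashed line is the median of a class. The median change at 24 h against the control mean, close to that line, was -0.77 for H1, -1.02 for H2A, -1.03 for H2B, -1.02 for H3 and -0.72 for H4.

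At the first time point the counts differed from class to class. At 8 h, 10 of 14 H2A genes and 13 of 16 H2B genes were lower than control, with class medians of -0.37 and -0.38. In the H3 class 4 of 8 were lower (median -0.25), in the H1 class 2 of 6 (median -0.08) and in the H4 class 3 of 11 (median -0.11). Averaged over the class, the 3 arrays at 8 h read -0.51, -0.52 and -0.47 for H2A and -0.50, -0.48 and -0.49 for H2B. They read -0.13, -0.12 and -0.11 for H4, so the H4 averages lay above those of H2A and H2B on every 8 h array. This covers only H4 genes with a probe set of their own. Probe sets naming several H4 genes were called lower at 8 h, with larger changes than any of the 11. They changed by -0.81 and -0.83 for H4C11 with H4C12, and by -0.88 for H4C14 with H4C15. Class averages were not tested, since the copies in a class are not independent measurements.

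By 24 h the medians of the 5 classes lay between -1.03 and -0.72. All 8 H3 genes were then lower than control, as were 13 of 14 H2A, 15 of 16 H2B, 9 of 11 H4 and 4 of 6 H1 genes. At 48 h the H1 median was -0.92, H2A -0.96, H2B -0.91, H3 -1.07 and H4 -0.67. The class means on the 3 arrays at 48 h were -0.83, -0.83 and -0.80 for H2B, against -1.02, -1.05 and -1.03 at 24 h. Every H2B mean at 48 h therefore lay above every one at 24 h. For H1 the means at 48 h were -0.97, -0.92 and -0.88, against -0.76, -0.93 and -0.74 at 24 h, and these overlapped.

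**Figure D2:**
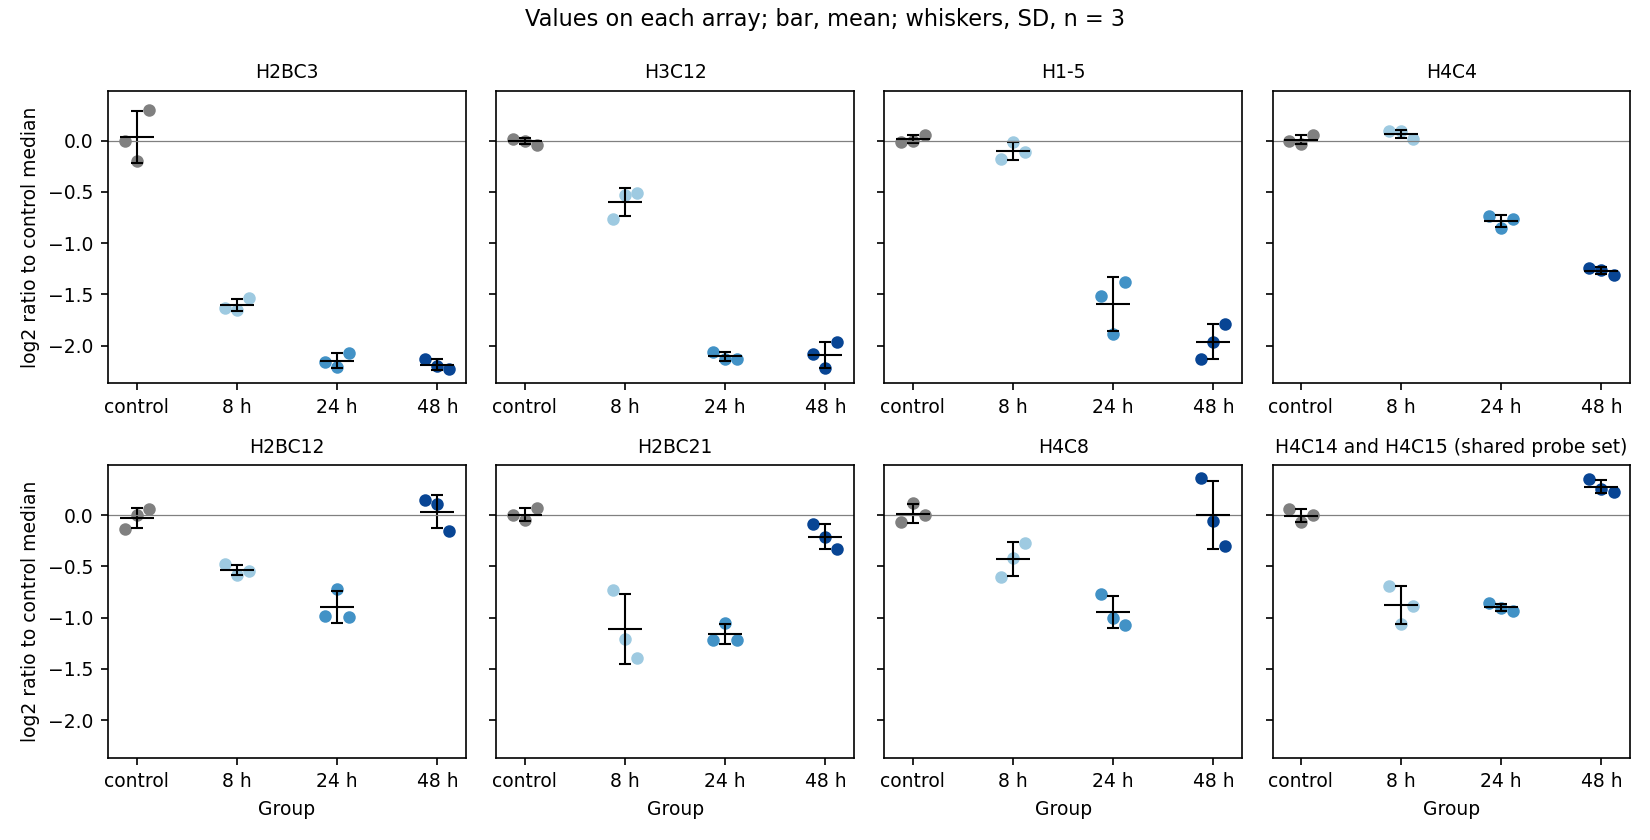
Values on each of the 12 arrays for 7 members and for the probe set shared by H4C14 and H4C15, 1 panel each, the groups in time order from control to 48 h on the horizontal axis, and the log2 ratio to the control median on the vertical axis. Points are single arrays, long bars are group means and whiskers are SDs (n = 3). H2BC3 at 24 h lies between -2.21 and -2.07 while the 3 control arrays lie between -0.20 and 0.30.

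Of the linker histone H1 genes, 4 were lower at 24 and 48 h and 2 were never called. H1-5 had the largest fall of the class at 24 h. It read -0.01, 0.00 and 0.06 on the control arrays, -0.18, -0.01 and -0.11 at 8 h, -1.52, -1.89 and -1.38 at 24 h, and -2.13, -1.97 and -1.79 at 48 h. Its 8 h arrays lay close to control, and the drop came between 8 and 24 h. The change against control was -0.12 at 8 h (SE 0.11, adjusted p = 0.564), -1.61 at 24 h (SE 0.11, adjusted p = 7.46e-07) and -1.98 at 48 h (SE 0.11, adjusted p = 7.01e-08), a 3.94-fold fall at the last time. H1-2, which is known to make polyadenylated mRNA too, read -0.11, 0.01 and 0.00 in control, -0.50, -0.38 and -0.43 at 8 h, -1.42, -1.64 and -1.40 at 24 h, and -1.60, -1.47 and -1.46 at 48 h. Its fall was already present on every 8 h array (-0.40, SE 0.069, adjusted p = 0.00086) and reached 2.75-fold at 24 h.

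H1-3 read 0.07, 0.00 and -0.22 in control, -0.78, -0.71 and -0.59 at 8 h, -1.0, -1.16 and -0.95 at 24 h, and -1.08, -1.32 and -1.21 at 48 h. Much of its 24 h fall was present at 8 h (-0.64, SE 0.087), and at 48 h it was 2.22-fold lower than control. H1-4 was lower by 24 h (-0.56) and 48 h (-0.68) and not called at 8 h (-0.05). H1-1 and H1-6 were called in none of the 5 comparisons. H1-6, a linker histone of testis, read -0.07, 0.00 and 0.01 in control, -0.03, -0.08 and -0.06 at 8 h, -0.09, -0.11 and -0.14 at 24 h, and -0.20, 0.02 and -0.16 at 48 h. H1-1 read 0.01, -0.08 and 0.00 in control, -0.05, -0.04 and -0.02 at 8 h, -0.01, -0.15 and -0.05 at 24 h, and -0.11, -0.10 and -0.04 at 48 h. Their changes against control were between -0.09 and -0.02 on the log2 scale, and every group overlapped control except H1-6 at 24 h.

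In the H2A class, whose proteins pair with H2B in the nucleosome core, 3 genes fell by 3.27- to 3.57-fold at 24 h. H2AC4 read 0.02, 0.00 and -0.06 in control, -1.07, -0.96 and -1.09 at 8 h, -1.71, -2.02 and -1.82 at 24 h, and -1.75, -1.69 and -1.95 at 48 h. It was 2.04-fold lower than control at 8 h and 3.57-fold lower at 24 h (-1.83, SE 0.083, adjusted p = 2.51e-08). H2AC13 read -0.09, 0.00 and 0.05 in control, -0.65, -0.66 and -0.36 at 8 h, -1.55, -1.84 and -1.77 at 24 h, and -1.57, -1.65 and -1.42 at 48 h. Its 24 h fall was 3.27-fold (-1.71, SE 0.094), with no overlap between any treated group and control.

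H2AC15 had the largest fall of the H2A class at 8 h. It read -0.19, 0.00 and 0.00 in control, -1.71, -1.88 and -1.44 at 8 h, -1.69, -2.08 and -1.89 at 24 h, and -1.69, -2.06 and -1.82 at 48 h. The arrays of the 3 treated groups overlapped one another and all lay far below control. The change was -1.62 at 8 h (SE 0.12, adjusted p = 1.27e-06) and -1.82 at 24 h (SE 0.12), and the step between them was -0.21 (SE 0.12, adjusted p = 0.333). A probe set that names H2AC15 together with H2BC15 gave other values, at -0.07 at 8 h (adjusted p = 0.601) and -0.55 at 24 h.

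H2AC6, another member with known polyadenylated transcripts, read 0.05, 0.00 and -0.09 in control, -0.32, -0.28 and -0.36 at 8 h, -0.90, -1.09 and -0.92 at 24 h, and -1.04, -0.98 and -0.80 at 48 h. It was close to the class median at each time and 1.94-fold lower than control at 24 h. The 9 H2A genes not given array by array changed by -1.21 to -0.76 at 24 h and by -1.12 to -0.55 at 48 h, and all 9 were called lower at both times. The germ-line member H2AC1 read -0.09, 0.00 and 0.05 in control, -0.06, -0.17 and 0.00 at 8 h, -0.18, -0.13 and -0.08 at 24 h, and -0.17, -0.11 and -0.05 at 48 h. Its treated groups overlapped control, and it was called in no comparison.

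In the H2B class, H2BC3 had the largest fall of all 55 members. It read 0.00, -0.20 and 0.30 in control, -1.63, -1.65 and -1.54 at 8 h, -2.16, -2.21 and -2.07 at 24 h, and -2.13, -2.20 and -2.23 at 48 h. The control arrays were more spread than the treated ones, and every treated array lay well below the lowest of them. The fall was 3.11-fold at 8 h, 4.54-fold at 24 h (-2.18, SE 0.096, adjusted p = 2.34e-08) and 4.66-fold at 48 h. H2BC14 read 0.02, 0.00 and -0.05 in control, -0.54, -0.47 and -0.53 at 8 h, -1.69, -1.74 and -1.68 at 24 h, and -1.62, -1.50 and -1.36 at 48 h. Its 3 arrays lay close together at 8 and at 24 h, and the 24 h fall was 3.24-fold (-1.69, SE 0.060).

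H2BC7 read -0.30, 0.00 and 0.28 in control, -0.75, -0.29 and -0.20 at 8 h, -1.52, -1.47 and -1.69 at 24 h, and -1.30, -1.27 and -1.50 at 48 h. The 8 h arrays overlapped control and the change there missed the threshold (-0.41, SE 0.15, adjusted p = 0.0684). The 24 h fall was 2.94-fold (SE 0.15 on the log2 scale). H2BC4, with polyadenylated transcripts known, read -0.15, 0.00 and 0.00 in control, -0.68, -0.43 and -0.35 at 8 h, -0.90, -1.17 and -0.96 at 24 h, and -0.95, -1.07 and -0.98 at 48 h, and was lower than control in each comparison. H2BC1, the testis H2B gene, read 0.00, -0.01 and 0.14 in control, -0.01, 0.12 and 0.02 at 8 h, -0.10, 0.02 and 0.11 at 24 h, and -0.21, -0.12 and 0.01 at 48 h. Every treated group overlapped control, and the change at 48 h was -0.15 (SE 0.071, adjusted p = 0.157).

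In the H3 class, which with H4 forms the central tetramer of the nucleosome, every gene was lower at 24 and at 48 h. H3C12 read 0.02, 0.00 and -0.04 in control, -0.76, -0.53 and -0.51 at 8 h, -2.06, -2.13 and -2.13 at 24 h, and -2.08, -2.22 and -1.97 at 48 h. This was the deepest fall of the class, 4.29-fold at 24 h (-2.10, SE 0.073, adjusted p = 4.71e-09). H3C10 read 0.14, 0.00 and -0.09 in control, -0.42, -0.58 and -0.74 at 8 h, -1.55, -1.66 and -1.67 at 24 h, and -1.02, -1.52 and -1.05 at 48 h. Every treated array was below control, and the 24 h fall was 3.12-fold (-1.64, SE 0.12).

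H3C1 read 0.00, -0.06 and 0.06 in control, -0.47, -0.58 and -0.46 at 8 h, -1.46, -1.60 and -1.52 at 24 h, and -1.83, -1.74 and -1.51 at 48 h. It was 2.88-fold lower than control at 24 h (-1.53, SE 0.075) and 3.24-fold lower at 48 h. H3C3, the H3 gene with the smallest 24 h change, read 0.14, 0.00 and -0.29 in control, 0.05, -0.44 and -0.34 at 8 h, -0.88, -0.68 and -1.0 at 24 h, and -0.75, -0.60 and -0.73 at 48 h. Its 8 h arrays overlapped control, and the change was -0.80 at 24 h (SE 0.13, adjusted p = 0.000829). The other 4 H3 genes changed by -1.09 to -0.84 at 24 h.

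Most H4 members, each with a probe set of its own, were called at 24 h and not at 8 h. H4C2, with the largest fall at 24 h, read 0.00, 0.07 and -0.12 in control, -0.41, -0.38 and -0.55 at 8 h, -1.35, -1.65 and -1.48 at 24 h, and -1.58, -1.68 and -1.46 at 48 h. It was one of 3 H4 members called at 8 h (-0.43, SE 0.084, adjusted p = 0.00203), and it was 2.78-fold lower at 24 h. H4C3 read 0.00, 0.16 and -0.02 in control, -0.17, -0.03 and 0.00 at 8 h, -0.56, -1.05 and -0.92 at 24 h, and -1.10, -1.29 and -0.73 at 48 h. Its 8 h arrays overlapped control, and the change was -0.89 at 24 h (SE 0.14, adjusted p = 0.000527).

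H4C7, the H4 gene with the smallest change at 24 h, read 0.03, 0.00 and -0.02 in control, -0.03, 0.02 and 0.04 at 8 h, -0.10, 0.09 and 0.21 at 24 h, and -0.08, 0.01 and 0.05 at 48 h. It was called in no comparison. Of the 5 comparisons, H4C6 was called in that of 48 h with control, with a small change (-0.26, SE 0.069, adjusted p = 0.0129). The change was -0.14 with array weights (adjusted p = 0.0699) and -0.17 without replicate 1 at 48 h (adjusted p = 0.0416).

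The step between 8 and 24 h was a fall for most members. Of the 32 members lower at 8 h, 30 fell further between 8 and 24 h, and all 32 were lower than control at 24 h. Of the 23 not called at 8 h, 17 were lower at 24 h than at 8 h and 17 were lower than control at 24 h. In all, 47 members were lower at 24 h than at 8 h and 0 were higher, where 9.4% of all genes were lower and 9.99% higher, and the median member changed by -0.62 between these times. The fall in that step was at least 2-fold for 9 members (0.125% of all genes), and the 24 h arrays lay below all 8 h arrays for 49 (16.6% of all genes). The exceptions among the members lower at 8 h were H2AC15 and H2BC21, whose step between 8 and 24 h was not called. Altogether 28 members were lower than control at all 3 times, and 16 were lower at 24 and 48 h without a call at 8 h. H4C1, H4C3, H4C4, H4C13 and H4C16 were among the 16, as were H1-4 and H1-5.

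Between 24 and 48 h some histone genes rose again and most did not change detectably. Compared with 24 h, 10 of the 55 members were higher at 48 h and 2 were lower, where 5.26% of all genes were higher and 4.86% lower, and the median member changed by 0.02. The 10 were 6 H2B genes (H2BC5, H2BC11, H2BC12, H2BC14, H2BC21 and H2BC26), 2 H3 genes (H3C8 and H3C10) and 2 H4 genes (H4C8 and H4C9). No H1 or H2A gene was called in either direction in the unweighted fit of all 12 arrays, but some were in refits. H1-5 (-0.37, adjusted p = 0.0599) was called lower without replicate 2 at 24 h (-0.51, adjusted p = 0.00458). H2AC11 (0.29, adjusted p = 0.0532) was called higher without replicate 3 at 48 h (0.39, adjusted p = 0.00762). With array weights, H1-3, H1-4 and H2AC21 were also called lower, and H2AC17 and H2AC25 higher. The 48 h arrays all lay above the 24 h arrays for 14 members and all below for 3, where 11.5% and 12.6% of all genes did so. Of the 10 that rose, 5 were not called different from control at 48 h. The median change of all 10 against control was -0.26 at 48 h and -0.91 at 24 h, a rise that follows from how the 10 were chosen. The 43 members called in neither direction, set apart by the same step, had medians of -0.95 at 48 h and -0.97 at 24 h.

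**Figure D3:**
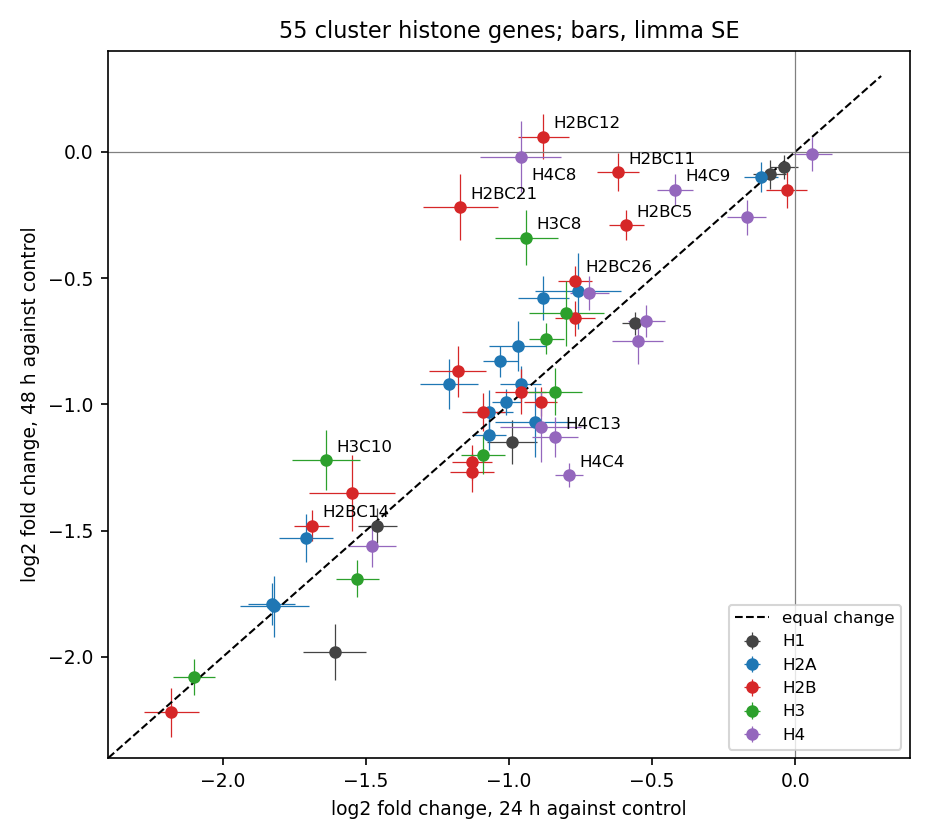
Each of the 55 members by its log2 change against control at 24 h (horizontal axis) and at 48 h (vertical axis), coloured by class, with limma's standard error as bars and the line of equal change dashed. Both axes share the 3 control arrays. H2BC12, H2BC21 and H4C8 lie far above the line, with changes at 48 h of 0.06, -0.22 and -0.02, and H4C4 lies below it at -1.28.

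The upstream sequence of 5 members is shown because these genes carry the contrast between a lasting and a passing fall. H2BC3 was as low at 48 h as at 24 h, and H4C4 fell further. At 48 h H2BC12 and H4C8 were near the control value, and H2BC21 had risen to a little below it. They were chosen after their values were seen. Each stretch is the 200 bases before the annotated start in RefSeq's GRCh38.p14, on the gene's own strand, which is the minus strand for all 5. Capitals mark matches, on either strand, to the CCAAT box (CCAAT), the TATA box (TATAAA) and the octamer bound by POU factors (ATTTGCAT). A CCAAT match on the other strand reads ATTGG, and no matches overlap. The stretches lie at chr6:26043714-26043913 for H2BC3, chr6:27146859-27147058 for H2BC12, chr1:149886683-149886882 for H2BC21, chr6:26285535-26285734 for H4C8 and chr6:26189113-26189312 for H4C4.
H2BC3: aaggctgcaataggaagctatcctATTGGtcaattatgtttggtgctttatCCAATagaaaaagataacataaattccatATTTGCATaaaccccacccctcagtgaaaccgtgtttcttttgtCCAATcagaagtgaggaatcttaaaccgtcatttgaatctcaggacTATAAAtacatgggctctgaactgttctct
H2BC12: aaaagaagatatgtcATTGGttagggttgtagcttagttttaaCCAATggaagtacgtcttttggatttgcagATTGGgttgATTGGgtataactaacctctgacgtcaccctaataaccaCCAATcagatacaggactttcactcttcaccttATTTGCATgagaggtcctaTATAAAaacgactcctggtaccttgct
H2BC21: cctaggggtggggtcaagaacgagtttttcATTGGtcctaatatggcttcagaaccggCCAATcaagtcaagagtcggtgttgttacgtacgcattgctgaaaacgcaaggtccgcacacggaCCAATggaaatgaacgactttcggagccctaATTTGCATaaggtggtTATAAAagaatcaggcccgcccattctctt
H4C8: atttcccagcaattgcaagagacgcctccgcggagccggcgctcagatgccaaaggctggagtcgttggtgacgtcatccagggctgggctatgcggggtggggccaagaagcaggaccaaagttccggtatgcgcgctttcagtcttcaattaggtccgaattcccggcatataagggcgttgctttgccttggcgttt
H4C4: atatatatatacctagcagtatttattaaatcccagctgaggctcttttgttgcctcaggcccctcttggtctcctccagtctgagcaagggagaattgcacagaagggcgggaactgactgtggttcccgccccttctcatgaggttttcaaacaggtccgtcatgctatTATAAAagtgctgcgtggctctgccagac

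The 3 H2B stretches each held 1 octamer upstream of 1 TATA box and at least 3 CCAAT boxes. H2BC12 had 5 CCAAT matches and H2BC3 and H2BC21 had 3 each. The H4C4 stretch held 1 TATA box and no other match, and H4C8 held none of the 3 letter strings. H2BC21 lies head to head with H2AC20, with 236 bases between their starts, so the H2BC21 stretch lies upstream of both genes. At 48 h H2AC20 was still lower than control (-1.03), while H2BC21 was not called (-0.22).

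RefSeq promoters (250 bases before to 50 after the start) were at hand for 50 of the 55 members. H2AC12, H3C11, H3C12, H4C1 and H4C3 were not matched. The CCAAT box was found in 44 of the 50 (88.0%), against 35.7% of the 27305 promoters in the table. The TATA box was found in 34 (68.0%, against 12.0%) and the octamer in 23 (46.0%, against 1.8%). All octamer matches lay in H2A and H2B genes, in 10 of 13 and 13 of 16, and 0 of the 6 H1, 6 H3 and 9 H4 promoters held one. The CCAAT box was in every matched promoter of H1, H2A, H2B and H3 and in 3 of the 9 H4 promoters. Neighbouring H2A and H2B genes can share the sequence between their starts, so these counts are not of independent promoters.

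Among the 10 members that were higher at 48 h than at 24 h, the octamer was in 4 promoters, against 19 of the other 40. Within H2B, it was in 4 of the 6 that rose and 9 of the other 10. H2BC5 and H2BC26 were the 2 that rose without one. A letter match describes the window and says nothing of a bound factor.

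H2BC12 and H2BC21, H2B genes with known polyadenylated transcripts, had the largest rises in the H2B class between 24 and 48 h by their own probe sets. H2BC12 read -0.13, 0.00 and 0.06 in control, -0.48, -0.58 and -0.54 at 8 h, -0.98, -0.72 and -0.99 at 24 h, and 0.15, 0.11 and -0.15 at 48 h. The 48 h arrays overlapped control and lay above all 24 h arrays (48 h against 24 h, 0.94, SE 0.088, adjusted p = 3.56e-05). H2BC21 read 0.00, -0.05 and 0.07 in control, -0.73, -1.21 and -1.39 at 8 h, -1.22, -1.05 and -1.22 at 24 h, and -0.09, -0.21 and -0.33 at 48 h. It had the largest rise of the members from 24 to 48 h, 1.94-fold (0.95, SE 0.13, adjusted p = 0.000533). Against control at 48 h the changes were 0.06 (adjusted p = 0.721) for H2BC12 and -0.22 (SE 0.13, adjusted p = 0.269) for H2BC21. All 48 h arrays of H2BC21 lay below all control arrays. In the limma fit without replicate 1 at 8 h, H2BC21 was called lower than control at 48 h (-0.22, adjusted p = 0.0471).

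Probe sets that name these genes along with others differed among themselves. A set naming H2BC12, H2BC5, H2BC17 and a further gene was still lower than control at 48 h (-0.68, SE 0.088, adjusted p = 7.87e-05), and its step between 24 and 48 h was 0.26 (adjusted p = 0.0871). A set naming H2BC21 with 2 pseudogenes was also lower at 48 h (-0.48, SE 0.044, adjusted p = 4.07e-06), with a step of 0.12 (adjusted p = 0.111). Another set, naming H2BC21 with H2BC18 and a pseudogene, was not called against control at 48 h (-0.24, adjusted p = 0.084) and was higher than at 24 h by 0.57 (SE 0.096, adjusted p = 0.00227).

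H2BC5, also in the group of 10 and listed here as making polyadenylated transcripts, read -0.02, 0.00 and 0.01 in control, -0.31, -0.43 and -0.28 at 8 h, -0.54, -0.66 and -0.58 at 24 h, and -0.21, -0.26 and -0.40 at 48 h. It rose by 0.30 after 24 h (SE 0.061, adjusted p = 0.00687) and was still lower than control (-0.29, SE 0.061, adjusted p = 0.00312). Of the 6 members listed here as making polyadenylated transcripts, all 6 were lower than control after both 8 and 24 h and 4 of 6 after 48 h. In that list, which may not hold every such member, 3 were higher at 48 h than at 24 h. H1-2, H2AC6 and H2BC4, the others of the 6, changed by -0.02, 0.03 and 0.01 between 24 and 48 h.

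H4C8 read -0.07, 0.12 and 0.00 in control, -0.60, -0.42 and -0.27 at 8 h, -0.77, -1.0 and -1.07 at 24 h, and 0.36, -0.06 and -0.30 at 48 h. The 48 h arrays were spread widely, around control, and above all 24 h arrays (0.94, SE 0.14, adjusted p = 0.000944). The call at 8 h (-0.45, SE 0.14, adjusted p = 0.0324) was lost without any 1 control array or without replicate 1 or 2 at 8 h (adjusted p = 0.0522 to 0.126). H2BC11 read 0.08, -0.21 and -0.09 at 48 h, against -0.58, -0.60 and -0.65 at 24 h, a step of 0.54 (SE 0.074, adjusted p = 0.000612). H3C8 read -0.17, -0.23 and -0.56 at 48 h, against -0.83, -0.82 and -1.13 at 24 h, a step of 0.61 (SE 0.11, adjusted p = 0.00361). In both genes the 48 h arrays all lay above the 24 h arrays. The call of H3C8 against control at 48 h (-0.34, adjusted p = 0.0376) was lost without replicate 3 at 48 h (-0.22, adjusted p = 0.135), control replicate 1 or 2, or 8 h replicate 2.

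The remaining steps up were small, at 0.43 for H3C10, 0.27 for H4C9, 0.26 for H2BC26 and 0.21 for H2BC14. Those 4 calls were lost in at least 1 of 19 refits (leaving out each array in turn, and other settings). H4C9 lost its call without replicate 1 or 2 at 24 h, H2BC26 without replicate 3 at 24 h or 2 at 48 h, H3C10 without any of 7 arrays and with array weights (0.15, adjusted p = 0.251), and H2BC14 when any array other than replicate 1 at 48 h was left out. In contrast, H2BC5, H2BC11, H2BC12, H2BC21, H3C8 and H4C8 were called higher in all 19. For H3C10, 2 of the 48 h arrays (-1.02 and -1.05) lay well above the third (-1.52).

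H4C4 went the other way. It read 0.00, -0.03 and 0.06 in control, 0.09, 0.09 and 0.02 at 8 h, -0.74, -0.85 and -0.76 at 24 h, and -1.24, -1.26 and -1.31 at 48 h. The groups at 8, 24 and 48 h did not overlap, and the step after 24 h was -0.49 (SE 0.048, adjusted p = 5.14e-05). H4C13 was also lower at 48 h than at 24 h (-0.28, SE 0.080, adjusted p = 0.0403), a call that was lost without any 1 control array, 8 h replicate 2, 24 h replicate 1 or 3, or 48 h replicate 1 or 2 (adjusted p = 0.0525 to 0.174).

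**Figure D4:**
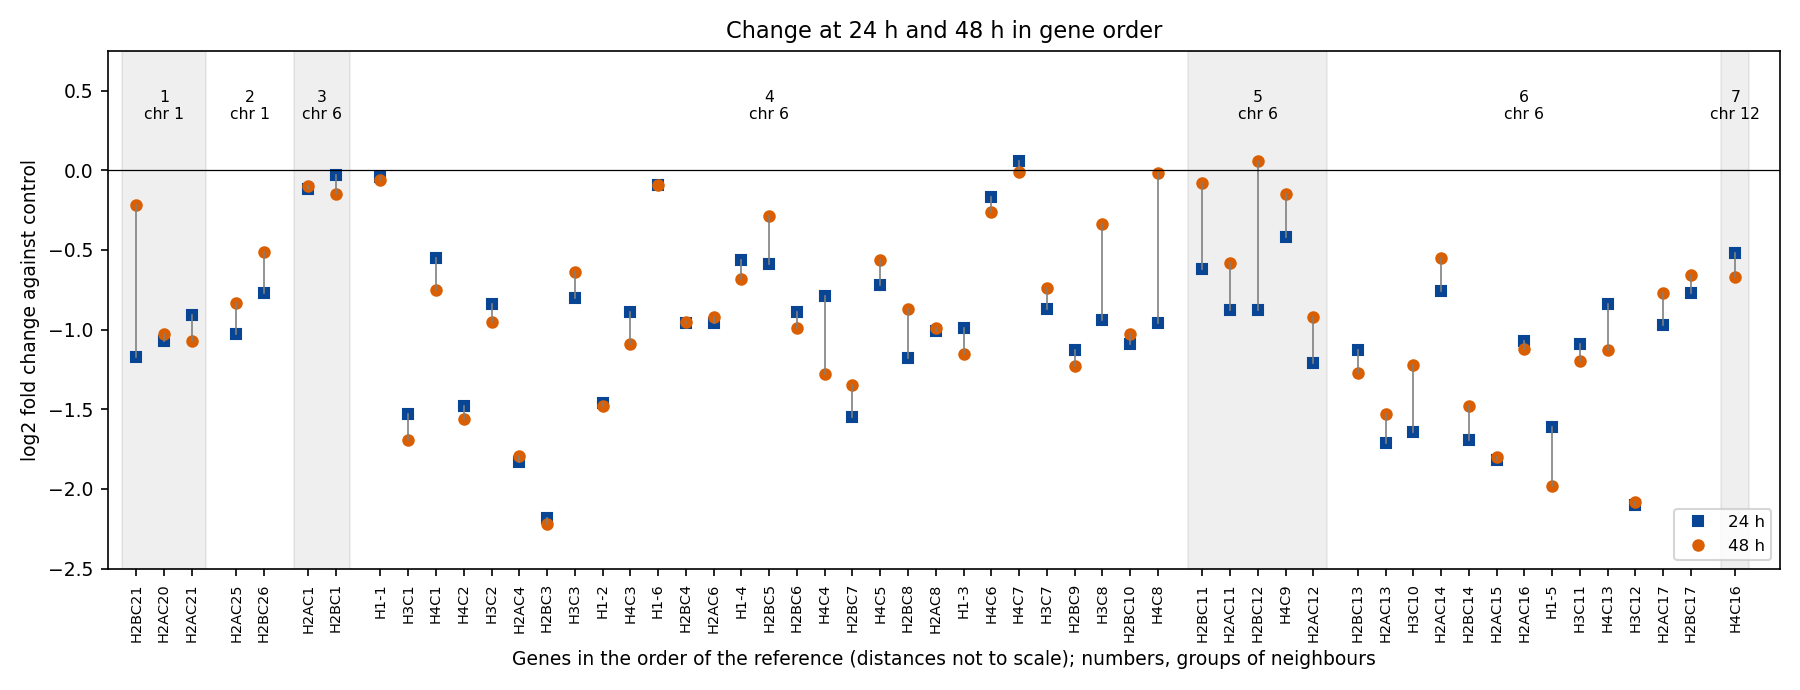
Log2 change of the 55 members against control at 24 h and at 48 h (vertical axis, squares for 24 h and circles for 48 h), placed in their order along chromosomes 1, 6 and 12 (horizontal axis, rank and not distance), with 7 numbered groups of neighbours. In group 5, from H2BC11 to H2AC12, the median change was -0.15 at 48 h, while in the 13-gene group after it the median was -1.22.

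The members can also be set out by their position in the clusters. Members were put in 1 group when the lower coordinates of neighbours in RefSeq, whatever their strand, lay within 200 kb. This grouping was chosen after the values were seen and is given without a test. It made 7 groups, 2 on chromosome 1, 4 on chromosome 6 and 1 on chromosome 12. The largest held 29 genes from H1-1 to H4C8 on chromosome 6. There 25 members were lower than control at 24 h and 25 at 48 h, and 3 were higher and 1 lower at 48 h than at 24 h. The 5-gene group of H2BC11, H2AC11, H2BC12, H4C9 and H2AC12 followed. All 5 were lower than control at 24 h and 2 at 48 h, and 3 of the 5 were higher at 48 h than at 24 h, with a group median of -0.15 at 48 h and -0.88 at 24 h.

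The last group on chromosome 6, of 13 genes from H2BC13 to H2BC17, had all 13 lower than control at 24 h and at 48 h, with medians of -1.13 and -1.22. The H2AC1 and H2BC1 pair, which stands alone on chromosome 6, held no called gene. On chromosome 1, H2BC21 lay with H2AC20 and H2AC21, and the changes at 48 h against control were -0.22, -1.03 and -1.07. H4C16, the member on chromosome 12, was lower at 24 h (-0.52) and 48 h (-0.67).

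Values were also set side by side for head-to-head H2A and H2B genes. Pairs were sought only among members on opposite strands that were next to each other by lower gene coordinate, whatever the strand. No other gene could have its lower coordinate between theirs. There were 9 such pairs, with starts 215 to 248 bases apart in RefSeq. H2AC12 had no matched promoter, so its strand was not at hand. H4C9 sorts between it and H2BC12 by lower coordinate, which for a minus-strand gene such as H2BC12 is its end and not its start. H2AC12 is therefore in no pair here, whether or not it lies head to head with H2BC12, and the 9 may not be all. At 48 h H2BC12 and H2AC12 changed by 0.06 and -0.92 against control. Both genes of a pair were lower than control in 6 pairs at 8 h, 8 at 24 h and 6 at 48 h, and the pair with neither lower at 24 h was H2AC1 and H2BC1. H2AC6 and H2BC4 had the same change at 24 h, -0.96 each. At 24 h the change was -1.69 for H2BC14 and -0.76 for H2AC14, the widest gap of the 9 pairs at that time. H2BC21 and H2AC20 were close at 24 h, at -1.17 and -1.07, and apart at 48 h, at -0.22 and -1.03. H2BC11 and H2AC11 stood at -0.08 and -0.58 at 48 h. The differences within pairs were not tested, and 2 genes are read by different probes.

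Probe sets that name several cluster histones at once were kept out of the 55. There were 14 in which every name was a cluster histone gene, and they cover 13 genes that have no probe set of their own and so are not among the 55. They are not 14 separate readings, since they hold 8 different sets of names. For instance, 4 of them name H3C13, H3C14 and H3C15, with close values, and 2 name the same 4 H2A genes. Compared with control, 8 of the 14 were lower at 8 h, 13 at 24 h and 11 at 48 h, and 2 were higher at 48 h. Those that rose both name H4C14 and H4C15, and their values were nearly the same on every array. The first read 0.06, -0.07 and 0.00 in control, -0.69, -1.06 and -0.89 at 8 h, -0.86, -0.91 and -0.93 at 24 h, and 0.35, 0.26 and 0.23 at 48 h. Its 48 h arrays lay above every control array, so that a fall at 8 h (-0.88, SE 0.078) and 24 h (-0.90, SE 0.078) was followed by a rise over control (0.28, SE 0.078, adjusted p = 0.0159). The step between 24 and 48 h was 1.18 (SE 0.078, adjusted p = 2.15e-06), larger than that of any of the 55 members.

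H4C11 and H4C12, named together by 2 probe sets, stayed down, with changes against control of -1.39 and -1.56 at 48 h and -1.40 and -1.57 at 24 h. The set for H3C4 and H2AC7 changed by -1.26 at 48 h and -1.53 at 24 h against control, a small rise between the times (0.28, SE 0.080, adjusted p = 0.0447). The set for H3C6 and H3C11 was not called in any comparison with control (-0.11 at 24 h, adjusted p = 0.406), although H3C11 was lower by its own probe set (-1.09, SE 0.077).

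Genes that make and process histone mRNA were called in both directions, in several cases near the share of all genes. Of 22 measured genes of histone mRNA synthesis and processing, 9 were higher and 2 lower at 8 h, 4 higher and 1 lower at 24 h, and 3 higher and 5 lower at 48 h, with medians of 0.16, 0.03 and -0.05. Over all genes, 12.1% were higher and 12.0% lower at 8 h, 8.69% and 8.02% at 24 h, and 13.0% and 12.3% at 48 h. SLBP, the stem-loop binding protein, read 0.10, -0.06 and 0.00 in control, 0.53, 0.53 and 0.60 at 8 h, 0.43, 0.36 and 0.40 at 24 h, and 0.10, 0.25 and 0.25 at 48 h. It was higher than control at 8 h (0.54, SE 0.057), 24 h (0.39, adjusted p = 0.000437) and 48 h (0.19, adjusted p = 0.0266). CDK2 rose by 0.42 (SE 0.044) at 24 h. Cyclin E1 (CCNE1) was higher than control by 0.72 at 8 h (SE 0.078) and 0.26 at 24 h (SE 0.078), and was not called at 48 h (-0.15, adjusted p = 0.202). It fell between 24 and 48 h by 0.41 (SE 0.078, adjusted p = 0.00492). MIF4GD, which binds SLBP and aids translation of histone mRNA, fell by 0.27 (SE 0.061). NPAT, the transcription activator, was called at no time (-0.07 at 24 h, SE 0.097, adjusted p = 0.739).

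**Figure D5:**
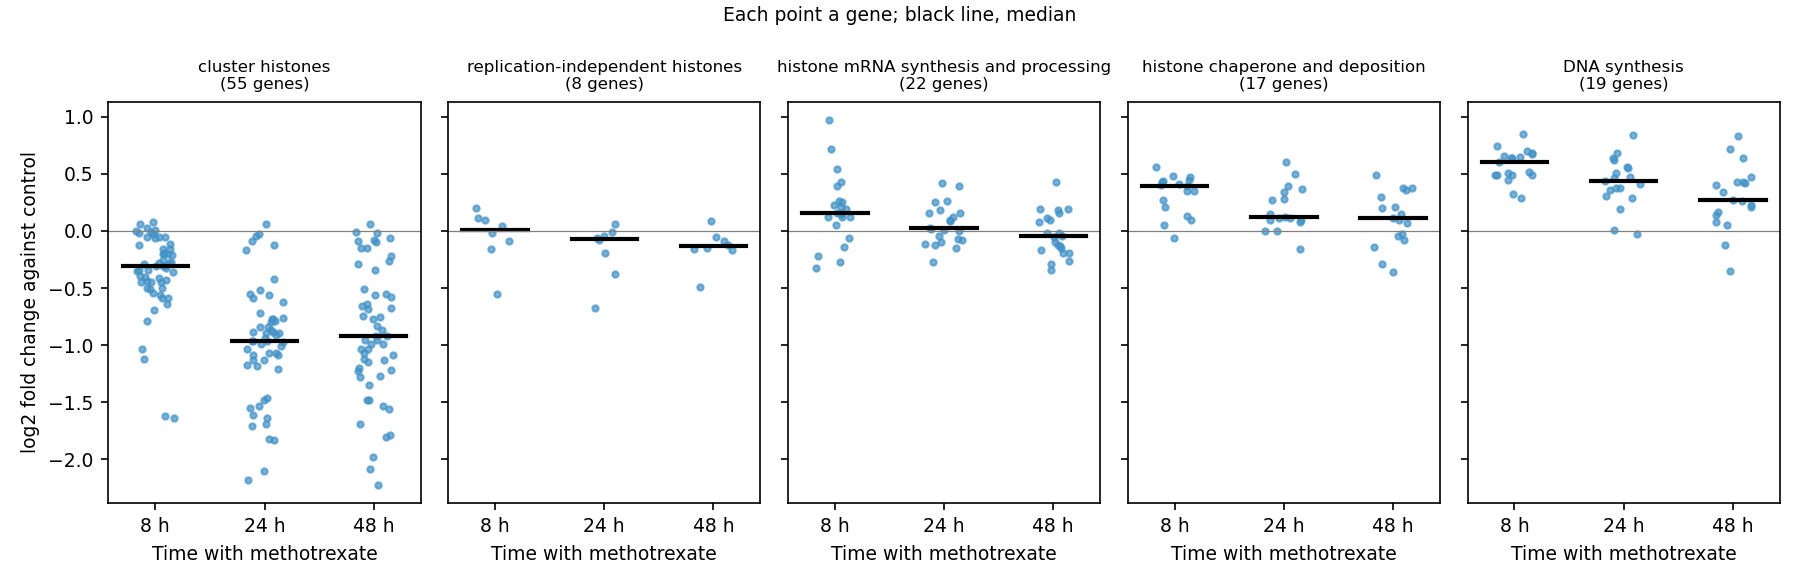
Log2 change against control (vertical axis) at 8, 24 and 48 h (horizontal axis) of each gene in 5 lists, 1 panel per list, with points for genes and a black line for the list's median. At 24 h the cluster histones have a median of -0.96, while DNA synthesis genes have 0.44 and replication-independent histones -0.07.

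Histone chaperones, which carry new histones to DNA, were higher in 13 of 17 cases at 8 h, 7 at 24 h and 7 at 48 h, and lower in 0, 0 and 2. For all genes tested, the shares called higher at these times were 12.1%, 8.69% and 13.0%, and those called lower 12.0%, 8.02% and 12.3%. CHAF1B (0.60, SE 0.072) and CHAF1A (0.39, SE 0.064), of the assembly factor that works at the replication fork, were higher at 24 h, as were DNAJC9 (0.50, SE 0.050) and TONSL (0.37, SE 0.079). DNA synthesis genes were higher in all 19 cases at 8 h, 17 at 24 h and 13 at 48 h, with 1 lower at 48 h and medians of 0.60, 0.44 and 0.27. Examples at 24 h are POLA2, a subunit of the DNA polymerase alpha-primase complex (0.84, SE 0.062), and TYMS, the thymidylate synthase (0.68, SE 0.050). Others are CDC45 (0.64, SE 0.060) and GINS3 (0.62, SE 0.057), both of the replicative helicase. At all 3 times, then, the median of the cluster histones was below 0 and that of the DNA synthesis genes above it.

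Replication-independent histones, variants that can be made outside S phase, had smaller changes. Of 8 measured, 1 was higher and 2 lower at 8 h, 3 lower at 24 h and 2 lower at 48 h, with medians of 0.01, -0.07 and -0.14. Over all genes, 12.0%, 8.02% and 12.3% were called lower at these times. H1-10, a linker histone variant, had the largest fall of the list. It read 0.04, 0.00 and -0.06 in control, -0.52, -0.56 and -0.59 at 8 h, -0.63, -0.70 and -0.70 at 24 h, and -0.65, -0.51 and -0.31 at 48 h, and it was lower than control each time (-0.67 at 24 h, SE 0.070, adjusted p = 2.35e-05). H2AJ (-0.38, SE 0.091) and H3-3B (-0.19, SE 0.048) were the others lower at 24 h. H2AX, the variant phosphorylated at DNA breaks, which is known to make a stem-loop mRNA as well as a polyadenylated one, was higher at 8 h (0.20, SE 0.063, adjusted p = 0.0376) and not called at 24 h (-0.01) or 48 h (0.09).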

How the data were processed

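Values of 12 arrays, 3 per group, were analysed. The authors deposited log2 values, made per the submitters' processing notes with RMA (background correction, normalization between arrays, summary per probe set) on genome build hg19, both without a version. That each probe set was then centred on the control median was read from the deposited values and is stated in no label. Base 2 was assumed, as RMA gives it. Of 28869 probe sets, 19310 named 1 gene, 1752 several and 7807 none here. Probe sets of a gene were averaged (685 of 18377 genes, none of them a member).

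limma 3.58.1 under R 4.3.3 was run on all 12 arrays (lmFit with a mean per group, contrasts.fit, eBayes), with 8 residual and 4.71 prior degrees of freedom. There were 5 comparisons, two-sided, with adjusted p under 0.05 by Benjamini-Hochberg over 18377 genes. Errors are moderated standard errors. The number of arrays limits the precision. Probe sets naming several cluster histones were tested in a second fit of all genes with these sets added. The fit was tested on simulated data. Motifs, neighbour order and starts came from RefSeq (GRCh38.p14). Figures were drawn with Python 3.11.15, pandas 2.3.3, numpy 2.4.6 and matplotlib 3.10.9.

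The members and the gene lists were chosen with earlier results of these data known, so no list or class was given a p. Values on all arrays are given for the 3 largest falls and the smallest change at 24 h in each class. They are also given for the 3 germ-line members and the 6 members listed as making polyadenylated transcripts. From the other lists the 4 largest called changes at 24 h are named, with SLBP, NPAT and H2AX. H2BC11, H3C8, H4C4, H4C9 and other members beyond that rule were singled out after their values were seen. Listed genes without a probe set of their own in the table used, among them POU2F1, SRRT, CENPA and H3-3A, were not analysed here.

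Same-numbered arrays correlated between -0.452 and 0.472 over 18 pairs after removal of group means, with 11 over 0.1, so replicate numbers were not taken to pair the arrays. The alternatives tried were array weights, a block for the replicate number, centring of arrays, a robust prior, only the 2 groups compared, each probe set on its own, probe sets naming several cluster histones added, an adjusted p under 0.01, at least 1.5-fold, and leaving out each array in turn.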

Additional observations from a re-analysis of the deposited data

Results flagged for a closer look

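The direct comparisons between treated times showed changes beyond those against control. Of the 55 members, 47 were lower at 24 h than at 8 h. At 48 h against 24 h, 10 were higher and 2 were lower. The 10 differences that were higher at 48 h were 0.30 for H2BC5, 0.54 for H2BC11, 0.94 for H2BC12, 0.21 for H2BC14, 0.95 for H2BC21, 0.26 for H2BC26, 0.61 for H3C8, 0.43 for H3C10, 0.94 for H4C8 and 0.27 for H4C9, all on the log2 scale. Each was tested as a difference between 48 h and 24 h by limma, with adjusted p under 0.05 over all genes, and in each comparison the drug's duration and the time in culture cannot be told apart. Groups of 3 arrays are too small for a test of single outlying arrays.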

How the results depend on the processing

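No alternative reversed a member's called change. Of 2470 refitted values of the members that the naming rule takes, 2416 stayed on the same side of the threshold, 34 lost a call and 20 gained one. All 49 members lower at 24 h against control were called in all 19 refits, as were 30 of 32 at 8 h (not H2AC12 and H4C8), 42 of 45 at 48 h (not H2AC14, H3C8 and H4C6) and 41 of 47 at 24 h against 8 h (not H1-3, H2AC14, H2AC25, H2BC12, H2BC26 and H4C8). H1-3 lost that last call without replicate 3 at 8 h or 2 at 24 h, H2BC12 without replicate 1 or 3 at 24 h, H2AC25 without replicate 2 at 8 h or 1 or 2 at 24 h, and the other 3 without any of 4 to 6 arrays. H2AC14 at 48 h was lost without control replicate 1 or 3 or replicate 3 at 48 h, and H2AC12 at 8 h without any of 8 arrays. Requiring at least 1.5-fold left 9 lower at 8 h, 29 lower at 24 h against 8 h, and 4 higher and 0 lower at 48 h against 24 h. Adding probe sets that name several cluster histones gave 2 higher than control at 48 h, the pair for H4C14 and H4C15. At 48 h against 24 h the 10 higher and 2 lower became 6 and 1 at adjusted p under 0.01, 6 and 1 with only those groups fitted, 15 and 13 with array weights, and 12 and 3 with a replicate block, which changed no other count by over 1.5 times. Leaving out 1 array gave 7 to 10 higher and 1 to 4 lower there, with 4 lower without replicate 3 at 48 h, 3 without replicate 2 at 24 h, and 1 without any control array, 8 h replicate 2, 24 h replicates 1 or 3, or 48 h replicates 1 or 2. It gave 30 to 34 lower at 8 h, 49 to 50 at 24 h, 43 to 46 at 48 h and 42 to 47 at 24 h against 8 h, and 50 by the F test each time. Except where fewer arrays or a stricter threshold explain a count by construction, the cause was not tested. Signal over background is unknown, so small changes of dim probe sets cannot be told from none.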
